A study of Mus musculus with 20 samples.

Results

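Sva, Rps6ka2 and Hpse are 3 mouse genes of the 46078 in the table of expression values, and they were picked for their large falls in Tet2 knockout LSK cells. LSK cells are the lineage-negative, Kit-positive, Sca1-positive fraction of bone marrow, which holds the blood stem cells and the earliest progenitors. RNA from these cells was sequenced in 5 groups of 4 libraries, and each library came from its own pool of 2 mice aged 3 to 4 months. All mice were labelled C57Bl/6J. The controls, called WT here, were +/+; Vav-Cre, so they carried no altered Idh or Tet2 allele but did carry Cre, a recombinase driven in blood cells by the Vav promoter. The other groups were Idh1 LSL-R132H/+; Vav-Cre (Idh1R132H), Idh2 LSL-R140Q/+; Vav-Cre (Idh2R140Q), Idh2 LSL-R172K/+; Vav-Cre (Idh2R172K) and Tet2-/- (Tet2KO). The Tet2KO label names no Cre, so the absence of Cre and the loss of Tet2 cannot be told apart between Tet2KO and the other 4 groups.

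Because the 3 genes were chosen by the Tet2KO values, those values are given below as a description, with no test. Tests are given for the 6 contrasts among the other 4 groups. Their means do not include Tet2KO, but 1 fit over all 5 groups gave the spread, so that the WT and Tet2KO libraries behind the choice enter every standard error. The 3 contrasts with WT also share the WT means with the choice. For the contrasts of Idh2R172K with the other Idh groups, values are therefore also given from fits of the 2 groups compared, which hold no library of WT or Tet2KO. The falls may have been taken against every other group, so the means of the Idh groups may have entered the choice as well. The fits of 2 groups do not remove that.

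TET2 is an enzyme that oxidises 5-methylcytosine in DNA, and mutant IDH1 and IDH2 make 2-hydroxyglutarate, a metabolite that can inhibit enzymes of the TET family. Sva encodes seminal vesicle antigen, a small secreted protein of seminal fluid that binds sperm and belongs with prolactin-induced protein (Pip) and the Sval genes to 1 family. Rps6ka2 encodes RSK3, a ribosomal S6 kinase that ERK phosphorylates and switches on at the end of the RAS-RAF-MEK-ERK cascade. Hpse encodes heparanase, the enzyme that cuts the heparan sulfate chains of proteoglycans inside cells and in the extracellular matrix, and it is known from platelets and other blood cells.

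Sva (ENSMUSG00000023289) lies on the + strand of chromosome 6 from 42038394 to 42042851 with 4 exons and an exonic length of 651 bases, in GENCODE M21 on mm10. Rps6ka2 (ENSMUSG00000023809) lies on the + strand of chromosome 17 from 7170115 to 7303315 and has 25 exon blocks and 9978 exonic bases. Hpse (ENSMUSG00000035273) lies on the - strand of chromosome 5 from 100679484 to 100719716 and has 12 exon blocks and 3516 exonic bases. In that annotation 0 other genes overlap any of the 3. Their start regions are shown because they differ in CG dinucleotides, the sites at which TET enzymes and DNA methyltransferases act. Each window holds 300 bases from RefSeq on GRCm38.p6, from 250 before the gene's start to 50 after it, read 5′ to 3′ on the gene's strand, with every CG in capitals. The windows are chr6:42038144-42038443 (+) for Sva, chr17:7169865-7170164 (+) for Rps6ka2 and chr5:100719667-100719966 (-) for Hpse.
Sva: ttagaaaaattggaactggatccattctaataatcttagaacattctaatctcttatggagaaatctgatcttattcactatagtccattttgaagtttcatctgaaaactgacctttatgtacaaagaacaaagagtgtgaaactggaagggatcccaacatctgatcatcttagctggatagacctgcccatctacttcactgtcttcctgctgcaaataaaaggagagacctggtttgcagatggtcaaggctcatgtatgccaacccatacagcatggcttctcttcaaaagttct
Rps6ka2: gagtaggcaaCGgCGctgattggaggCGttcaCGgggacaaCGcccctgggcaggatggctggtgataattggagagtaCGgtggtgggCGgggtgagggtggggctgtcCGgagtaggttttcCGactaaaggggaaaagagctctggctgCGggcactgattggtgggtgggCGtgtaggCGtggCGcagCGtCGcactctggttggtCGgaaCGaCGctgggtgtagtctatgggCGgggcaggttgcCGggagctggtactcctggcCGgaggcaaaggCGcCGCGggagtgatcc
Hpse: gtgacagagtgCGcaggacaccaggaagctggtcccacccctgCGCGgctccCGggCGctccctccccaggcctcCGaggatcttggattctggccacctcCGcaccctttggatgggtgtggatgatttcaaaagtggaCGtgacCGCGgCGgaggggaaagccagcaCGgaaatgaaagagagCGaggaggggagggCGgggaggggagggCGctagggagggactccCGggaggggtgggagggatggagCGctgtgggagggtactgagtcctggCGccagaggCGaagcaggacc

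The Sva window holds 0 CG, as do 5.78% of the 27025 windows in the same RefSeq table, whose median is 7. The Rps6ka2 window holds 24 CG, more than in 80% of all windows, and the Hpse window holds 19, more than in 71.6% of them. Their GC contents were 38.7% for Sva, 64.7% for Rps6ka2 and 67.0% for Hpse. The ratio of observed to expected CG was 0 for Sva, 0.9 for Rps6ka2 and 0.6 for Hpse. Searched on both strands, none of 6 short motifs occurred in any of the 3 windows. The TATA box was searched as TATAAA, found in 14.2% of all windows. The GATA site was searched as AGATAA, found in 11.4%. The RUNX site was searched as TGTGGT, found in 16.9%. The PU.1 site was searched as GAGGAAG, found in 13.5%. The E-box was searched as CACGTG, found in 7.24%. The AP-1 site was searched as TGACTCA, found in 5.17%. A missing match says only that these letters are not in this window. DNA methylation was not analysed here.

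The libraries held about 35200000 to 45000000 reads (median 39200000), recovered from the deposited TPM values (a level scaled for gene length and for depth, summing to 1000000 in a library) and the gene lengths. A single transcript, Gm23935, took 7.55% to 20.0% of the TPM of a library (median 11.9%). The libraries numbered 4 in WT and the 3 Idh groups were at the low end of that share and Tet2KO replicate 2 was at the top. Ly6a and Kit, the genes of the sorting antigens Sca1 and Kit, lay at 115 to 350 TPM and 97.9 to 636 TPM, while the T cell gene Cd3e did not exceed 1.08 TPM and the neutrophil gene Ly6g 0.789 TPM. Tet2 itself was measured at 6.67 to 9.23 TPM in WT and at 5.74 to 12.2 TPM in Tet2KO. The exons removed in the knockout are not given in the sources used here, so a level over the whole gene checks nothing about the label.

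Sva was present at a low and even level in every library except those of Tet2KO, where it was all but missing. The WT libraries measured 8.51, 8.03, 9.31 and 9.97 TPM (mean 8.95 ± 0.859, SD, n = 4). Those of Idh1R132H measured 9.74, 7.97, 6.38 and 12.3 TPM (9.11 ± 2.56, SD, n = 4). Those of Idh2R140Q measured 6.54, 9.67, 6.22 and 12.9 TPM (8.84 ± 3.15, SD, n = 4). The 3 groups overlap throughout, and in each of them the library numbered 4 was the highest. Those of Idh2R172K measured 9.40, 8.95, 8.31 and 11.1 TPM (9.43 ± 1.18, SD, n = 4). The Tet2KO libraries measured 0, 0, 0.135 and 0 TPM. The 16 libraries with Cre therefore ran from 6.22 to 12.9 TPM and did not meet the Tet2KO libraries anywhere.

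The TPM values of Sva return whole reads, which gives the counting error. The 4 WT libraries held 68 to 81 reads each and 295 in all, and the Idh groups held 300 in Idh1R132H, 286 in Idh2R140Q and 307 in Idh2R172K. The 4 Tet2KO libraries held 1 read in all. Scaled for depth, the Tet2KO reads were 0.344% of those in WT, with an exact 95% interval of 0.00867% to 1.93% that covers counting error only. Against Idh2R172K the share was 0.324% (0.00819% to 1.82%). A count of 0 in a Tet2KO library allows up to 3 reads, or 0.298 to 0.419 TPM of Sva. On the log2(TPM + 1) scale the difference from WT was -3.27, a value that the added 1 compresses.

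**Figure D1:**
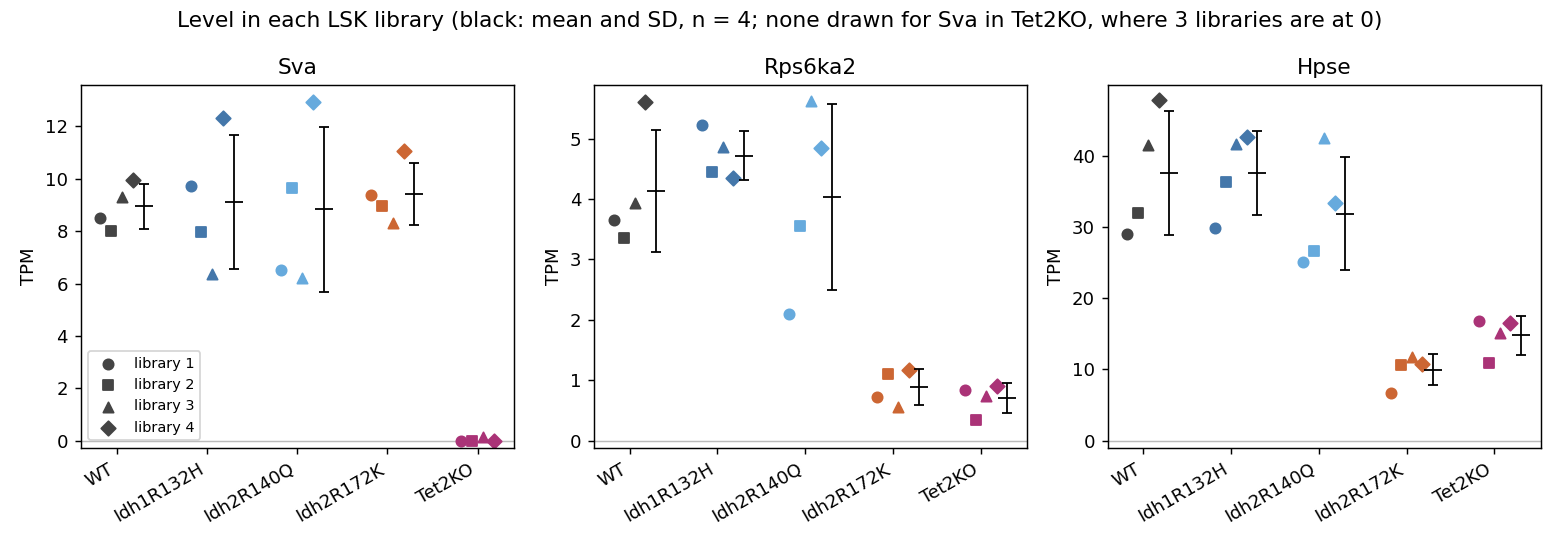
Level in TPM of Sva, Rps6ka2 and Hpse in each of the 20 libraries by group, with the mean and SD of 4 libraries in black and the symbol giving the library number. Sva lies at 6.22 to 12.9 TPM in the 16 libraries outside Tet2KO and at 0 to 0.135 TPM in Tet2KO, whereas Rps6ka2 and Hpse are low in both Idh2R172K and Tet2KO.

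Rps6ka2 was expressed at about the same level in WT, Idh1R132H and Idh2R140Q and was low in both Idh2R172K and Tet2KO. The WT libraries measured 3.65, 3.35, 3.93 and 5.60 TPM (4.13 ± 1.01, SD, n = 4). Those of Idh1R132H measured 5.23, 4.44, 4.86 and 4.34 TPM (4.72 ± 0.410, SD, n = 4). Those of Idh2R140Q were the most uneven, at 2.11, 3.55, 5.62 and 4.85 TPM (4.03 ± 1.54, SD, n = 4). All 12 of these libraries stood above 2 TPM. Those of Idh2R172K measured 0.728, 1.11, 0.561 and 1.16 TPM (0.890 ± 0.292, SD, n = 4). Those of Tet2KO measured 0.841, 0.347, 0.748 and 0.910 TPM (0.712 ± 0.252, SD, n = 4). The Idh2R172K and Tet2KO libraries overlap each other and none reaches the other 12. The Tet2KO mean was 5.81-fold lower than that of WT and was 79.9% of that of Idh2R172K. Reads are not given for Rps6ka2, because its TPM values do not return whole reads with the length above.

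Hpse was the most abundant of the 3 and, like Rps6ka2, was low in both Idh2R172K and Tet2KO. The WT libraries measured 29.0, 32, 41.4 and 47.9 TPM (37.6 ± 8.65, SD, n = 4), which is 1253 to 1948 reads. Those of Idh1R132H measured 29.8, 36.3, 41.6 and 42.6 TPM (37.6 ± 5.91, SD, n = 4). Those of Idh2R140Q measured 25.0, 26.6, 42.5 and 33.3 TPM (31.9 ± 7.95, SD, n = 4). These 3 groups overlap. The Idh2R172K libraries measured 6.76, 10.6, 11.8 and 10.7 TPM (9.96 ± 2.21, SD, n = 4), or 326 to 506 reads. The Tet2KO libraries measured 16.8, 10.9, 15.1 and 16.5 TPM (14.8 ± 2.71, SD, n = 4), or 591 to 719 reads. Neither group reaches the lowest of the other 12 libraries, and they overlap each other through Tet2KO replicate 2 alone. The Tet2KO mean was 2.54-fold lower than that of WT and 148% of that of Idh2R172K. In sorted but mixed cells such as these, fewer cells of a type and less RNA per cell cannot be told apart.

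Sva ranked 6 from the bottom by log2 difference between Tet2KO and WT among the 14176 genes that averaged 1 TPM or more, and the other 9 of the lowest 10 were immunoglobulin variable segments such as Igkv6-32 (105 TPM in WT and 10.8 TPM in Tet2KO). Rps6ka2 ranked 35 (-1.58) and Hpse ranked 50 (-1.28). These ranks come from the values by which the genes were chosen. As a description only, with limits set after the values of Sva were seen, genes were also counted by how far the Tet2KO libraries lay below the rest. In 213 genes (1.5%) all 4 Tet2KO libraries lay below the other 16. In 2 genes the lowest of the 16 was also at least 3 TPM and more than 4 times the highest Tet2KO library. They were Sva, which was chosen for its fall, and Gm37068, a long noncoding RNA on the - strand of chromosome 1 from 35625606 to 35651297, which measured 3.59 to 9.26 TPM in the 16 libraries and 0 to 0.137 TPM in Tet2KO.

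Whether the IDH mutants differ from controls in these genes was tested with limma on log2(TPM + 1), with p-values adjusted over all 14176 genes by the Benjamini-Hochberg method and a call at an adjusted p under 0.05. In Idh2R172K against WT, 2 of the 3 genes were lower, where 7.33% of all genes tested were lower and 8.03% higher. Rps6ka2 fell by 1.44 on the log2 scale (SE 0.205, 95% interval -1.87 to -1.01, adjusted p = 6.19e-05 by limma), and its mean was 4.64-fold lower. Hpse fell by 1.81 (interval -2.24 to -1.39, adjusted p = 4.1e-06 by limma), and its mean was 3.77-fold lower. In both genes all 4 Idh2R172K libraries lay below all 4 of WT. Sva differed by 0.07 (interval -0.35 to 0.48, adjusted p = 0.862 by limma), an interval that leaves room for a modest change but not for one of the size seen in Tet2KO.

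The contrasts of Idh2R172K with the other Idh groups gave the same calls, though the means of those groups may also have entered the choice. Against Idh1R132H, where 7.32% of genes were lower in Idh2R172K and 6.21% higher, Rps6ka2 differed by -1.61 (adjusted p = 1.85e-05 by limma) and Hpse by -1.83 (adjusted p = 3.97e-06). Against Idh2R140Q, the other allele of the same enzyme, 6.74% of genes were lower and 3.76% higher. There Rps6ka2 differed by -1.37 (adjusted p = 0.000121 by limma) and Hpse by -1.58 (adjusted p = 2.51e-05). The Idh2R172K mean was 5.3-fold lower than that of Idh1R132H and 4.53-fold lower than that of Idh2R140Q for Rps6ka2, and 3.77-fold and 3.2-fold lower for Hpse. Sva differed by 0.07 from Idh1R132H and by 0.13 from Idh2R140Q (intervals ending at 0.48 and 0.54, adjusted p = 0.875 and 0.834 by limma). In fits of the 2 groups alone, against Idh1R132H the adjusted p by limma was 0.000214 for Rps6ka2, 0.000312 for Hpse and 0.835 for Sva. Against Idh2R140Q it was 0.00945, 0.0021 and 0.816.

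Idh1R132H and Idh2R140Q could not be told from WT in any of the 3 genes. In Idh1R132H against WT, where limma called 1 gene of all those tested (0.00705%), the differences were -0.01 for Sva, 0.17 for Rps6ka2 and 0.01 for Hpse. Their intervals ran from -0.42 to 0.40, from -0.26 to 0.60 and from -0.41 to 0.44. In Idh2R140Q against WT, where 0 genes were called (0%) and 407 had an unadjusted p under 0.05, the differences were -0.07, -0.07 and -0.24. Their intervals ran from -0.48 to 0.34, from -0.50 to 0.36 and from -0.66 to 0.19. Between Idh2R140Q and Idh1R132H, where 1 gene was called (0.00705%), the differences were -0.06, -0.24 and -0.25 with an adjusted p of 1 by limma for each. None of these 9 tests had an unadjusted p under 0.05, and the lowest was 0.236.

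**Figure D2:**
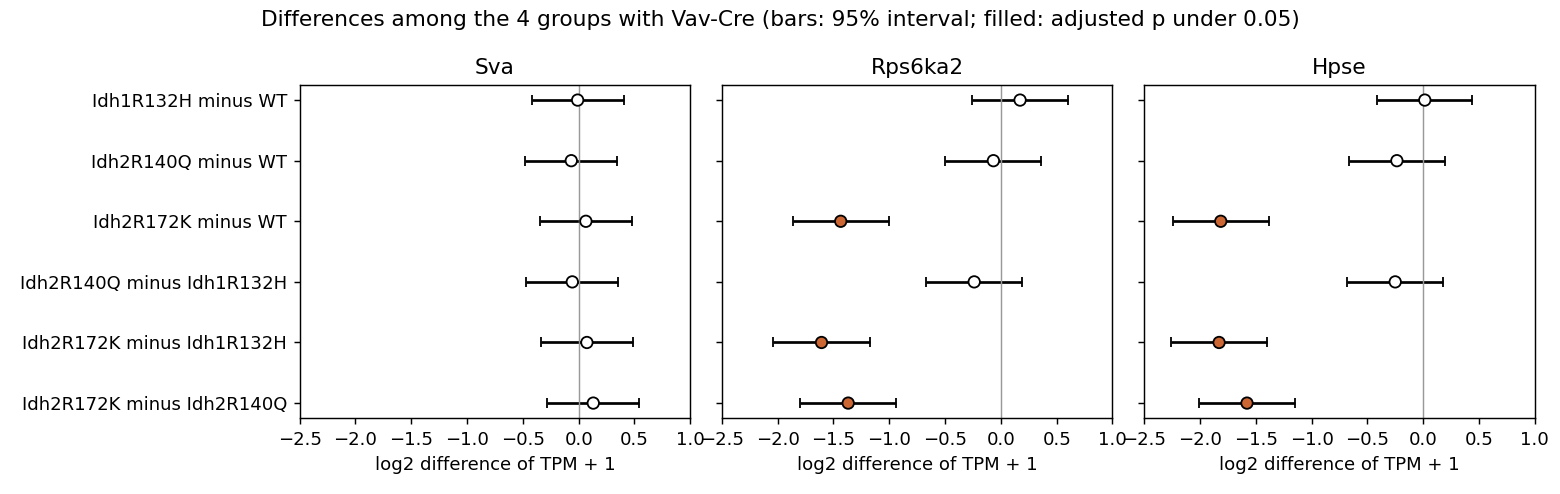
Differences of log2(TPM + 1) for Sva, Rps6ka2 and Hpse in the 6 contrasts among WT and the 3 Idh groups, with 95% intervals as bars and filled points where the adjusted p is under 0.05. The 3 contrasts with Idh2R172K lie between -1.37 and -1.83 for Rps6ka2 and Hpse, and every interval of Sva spans 0.

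The order of the group means was thus Idh2R172K, Idh1R132H, WT, Idh2R140Q and Tet2KO for Sva, with the first 4 within their spread of each other. For Rps6ka2 it was Idh1R132H, WT, Idh2R140Q, Idh2R172K and Tet2KO, where the first 3 do not differ beyond their spread and the last 2 overlap. For Hpse it was WT and Idh1R132H at the same rounded mean, Idh2R140Q, Tet2KO and Idh2R172K. Rps6ka2 and Hpse also moved together when deviations within groups were pooled, though not in every group. In Idh1R132H, replicate 1 had the highest Rps6ka2 (5.23 TPM) and the lowest Hpse (29.8 TPM) of its group. Over all 20 libraries the deviations of their log2 values from the group means had a Pearson r of 0.635, against 0.26 for Sva with Rps6ka2 and 0.02 for Sva with Hpse. These points share their library and its depth, so the values are descriptions.

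**Figure D3:**
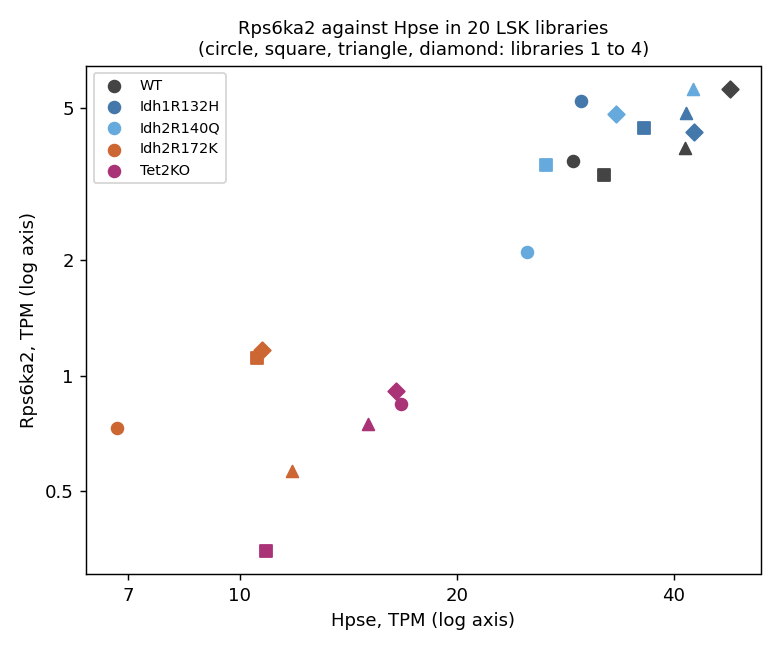
Rps6ka2 against Hpse in TPM on log axes, 1 point per library, coloured by group and with the symbol giving the library number. The 8 libraries of Idh2R172K and Tet2KO lie at the lower left, at up to 1.16 TPM of Rps6ka2 and 16.8 TPM of Hpse, and the 12 libraries of WT, Idh1R132H and Idh2R140Q lie at the upper right.

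The genes with the most similar pattern were found by Pearson r of log2(TPM + 1), first over the 16 libraries outside Tet2KO. For Rps6ka2 they were Hk3 (0.969), Ehd3 (0.969), Fndc3b (0.968), Atp8b4 (0.961) and App (0.961). For Hpse they included Parvg (0.981), B4galnt1 (0.98), Gbp3 (0.978) and Atp8b4 (0.976). Atp8b4 is on both lists. For Sva they were Rpl24 (0.907), Slc25a26 (0.89), Gpt (0.885), Pot1b (0.855) and Dnajc4 (0.853), in a gene whose 4 group means hardly differ, so that these values follow the differences between libraries.

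Over all 20 libraries the values include the Tet2KO libraries by which Rps6ka2 and Hpse were both chosen, so their likeness there partly restates the choice. Hpse ranked 4 among the genes most like Rps6ka2 (0.923), after Il1rl1 (0.95), Tmem56 (0.927) and Sptb (0.927) and before Reps2 (0.921). The genes most like Hpse included B4galnt1 (0.958), Sptb (0.953), Add2 (0.95) and Tmem229b (0.948). Those most like Sva were Commd10 (0.874), Fem1b (0.874), P2ry1 (0.863), Xk (0.85) and Plekhf2 (0.845). Sptb, the erythroid beta-spectrin, is a gene of red cell precursors.

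The relatives of Sva were silent in these cells. Pip, Sval1, Sval2 and Sval3 lie upstream of Sva on chromosome 6, Sval3 at a distance of 65.3 kb and Pip at 186 kb, and all were at 0 TPM in all 20 libraries. Of the 10 protein-coding genes nearest to Sva, 5 on each side, 2 reached a mean of 1 TPM. Gstk1, a glutathione transferase, measured 35.7 TPM in WT, 45.2 TPM in Tet2KO (adjusted p = 0.0675 by limma) and 27.0 TPM in Idh2R172K, where it was lower (-0.39, adjusted p = 0.0173). That call was lost without Idh2R172K replicate 4 (adjusted p = 0.0548). Casp2, a caspase, measured 137.5 TPM in WT and 114 TPM in Tet2KO (adjusted p = 0.242 by limma).

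Around Rps6ka2, 3 of 10 neighbours could be tested and 0 were called in Tet2KO against WT. They were Rsph3b (18.6 TPM in WT and 17.9 TPM in Tet2KO), Tagap1 (18.9 and 23.9 TPM) and Rnaset2b (12.9 and 12.2 TPM). Around Hpse, 8 of 10 could be tested. The nearest, Coq2, an enzyme of ubiquinone synthesis 4.34 kb away, measured 40.1 TPM in WT and 28.0 TPM in Tet2KO (adjusted p = 0.405 by limma). Plac8, 107 kb away, measured 1272 TPM in WT and 559 TPM in Idh2R172K, a fall of 1.21 on the log2 scale (adjusted p = 0.000623 by limma). In Tet2KO it measured 1375 TPM (adjusted p = 0.85).

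Over the 3 regions 13 neighbours were tested. In Tet2KO against WT limma called 0 of them, where 5.02% of all genes were higher and 2.02% lower, and 2 had an unadjusted p under 0.05, namely Gstk1 upward and Lin54 downward. The median difference of the 13 was -0.05, beside 0.02 over all genes. In Idh2R172K against WT 0 were higher and 2 lower, where 8.03% of all genes were higher and 7.33% lower, with a median of -0.09 beside 0.11. The calls in Tet2KO depended on the setting. The most were 3 higher with weights for the libraries, 3 higher without the number 4 libraries of the other groups and Tet2KO replicate 2, and 2 lower with median-of-ratios scaling.

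**Figure D4:**
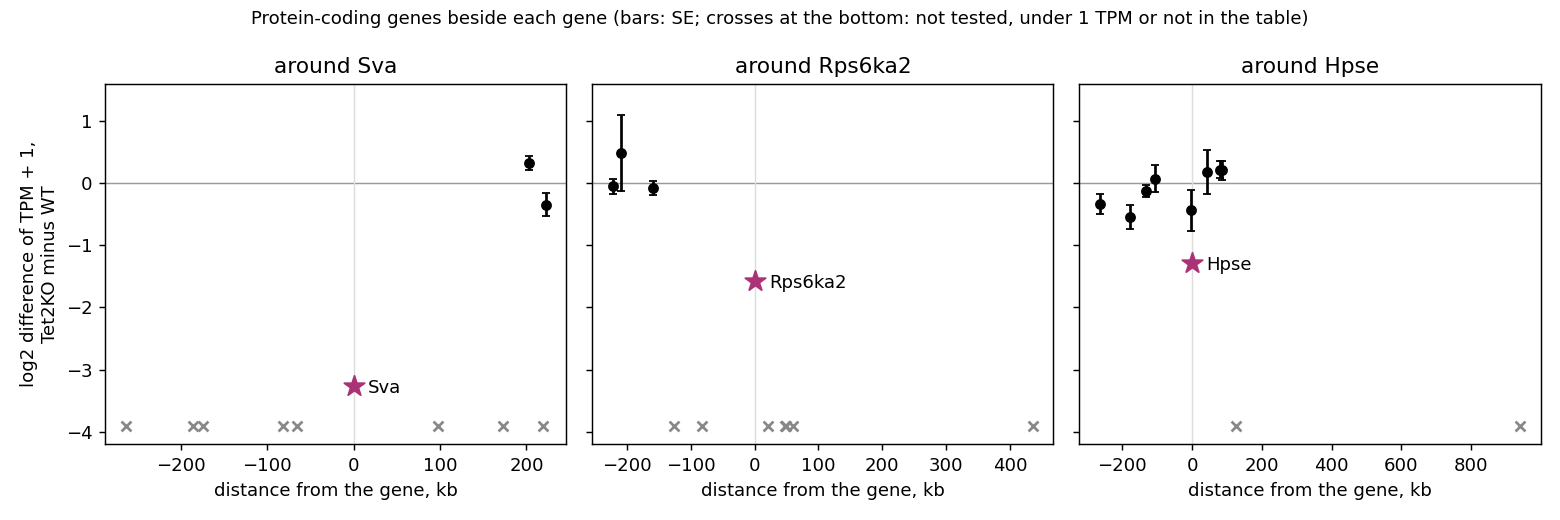
Tet2KO minus WT difference of log2(TPM + 1) for the protein-coding genes within 5 places of each gene (black points, bars are SE) against their distance in kb, with the gene itself as a star. Crosses at the bottom mark genes that were not tested, and none of the 13 tested neighbours was called, while the stars lie at -3.27, -1.58 and -1.28.

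The pathways of Rps6ka2 and Hpse were followed with gene lists that exclude both genes. Over 6 lists 82 genes could be tested, of 102 genes that also count the 4 untested relatives of Sva. In Tet2KO against WT 2 were higher (2.44%) and 1 lower (1.22%), shares below the 5.02% and 2.02% of all genes, with a median difference of -0.18 beside 0.02. An unadjusted p under 0.05 was found for 25 of the 82, beside 26.6% of all genes, and 19 of these 25 were lower (23.2% of the 82, beside 11.3% of all genes). In Idh2R172K against WT 6 were higher and 6 lower (7.32% each), close to the 8.03% and 7.33% of all genes, with a median of 0.11 beside 0.11. In Idh1R132H and Idh2R140Q against WT 0 were called by limma, and 1 in each had an unadjusted p under 0.05. The Tet2KO counts moved with the setting, from 4 higher and 17 lower with median-of-ratios scaling to 20 higher and 12 lower with library weights. They were 16 higher and 3 lower without the number 4 libraries and Tet2KO replicate 2, 2 higher and 10 lower without Tet2KO replicate 1, 2 higher and 6 lower without Tet2KO replicate 3, and 0 and 0 in a fit of the 2 groups alone. Leaving out WT replicate 1, 2 or 3 or Tet2KO replicate 4 left 1 higher and 0 lower, leaving out Tet2KO replicate 2 left 2 and 0, and leaving out WT replicate 4 gave 4 and 1.

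Of 19 kinases from RAS to the other ribosomal S6 kinases, 0 were called in Tet2KO against WT, and the median was -0.24. An unadjusted p under 0.05 was found for 4 (21.1%), all lower, beside 11.3% of all genes lower at that limit. Rps6ka1 (RSK1), the most abundant RSK here, measured 252 TPM in WT, 239 TPM in Idh2R172K and 200 TPM in Tet2KO (adjusted p = 0.136 for Tet2KO by limma). Rps6ka3 (RSK2) measured 27.8 TPM in WT and 22.4 TPM in Tet2KO (adjusted p = 0.202 by limma). In Idh2R172K it was higher, at 42.1 TPM (0.57, adjusted p = 0.0349 by limma). That call was kept in 1 of 8 fits that each left out 1 library, without Idh2R172K replicate 1, and lost in the other 7 (adjusted p 0.0546 without WT replicate 3 to 0.0867 without Idh2R172K replicate 3) and with no filter (0.0558). Rps6ka6 (RSK4) was lower there, at 0.639 TPM against 1.83 TPM in WT (-0.78, adjusted p = 0.0079), and kept its call in all 8. Nras rose from 88.8 to 112 TPM (0.33, adjusted p = 0.0243), a call kept in 3 of 8 such fits and lost when WT replicate 1 or 2, or replicate 1, 2 or 3 of Idh2R172K, was left out (adjusted p 0.0513 to 0.0602) and with median-of-ratios scaling (0.118). Of the 4 RSK genes, then, Rps6ka2 and Rps6ka6 were lower in Idh2R172K, Rps6ka3 was higher and Rps6ka1 was not called.

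Of 10 tested inhibitors of the cascade, 1 was lower in Tet2KO (10%, beside 2.02% of all genes). Spred2, which blocks RAF activation, measured 14.9 ± 1.66 TPM in WT and 10.8 ± 1.33 TPM in Tet2KO (SD, n = 4; -0.44, adjusted p = 0.0331 by limma). The call was lost without WT replicate 1, 2 or 3 or Tet2KO replicate 2 or 4 (adjusted p 0.0534 to 0.105) and in a fit of the 2 groups (0.183). In Idh2R172K, Dusp6, the ERK phosphatase that ERK signalling itself induces, fell from 79.4 to 26.9 TPM (-1.51, adjusted p = 0.000414 by limma). Dusp9, another ERK phosphatase, rose from 2.78 to 5.46 TPM (0.77, adjusted p = 0.00617). Both calls held in all 8 fits that left out 1 library. Of 15 known substrates or targets of RSK kinases, 1 was higher in Tet2KO (6.67%, beside 5.02% of all genes). Nr4a1, an orphan nuclear receptor and immediate early gene, measured 6.91 ± 3.06 TPM in WT and 14.9 ± 7.42 TPM in Tet2KO (SD, n = 4; 0.98, adjusted p = 0.048 by limma). That call was lost without the same 5 libraries, each in turn (adjusted p 0.0762 to 0.137), and in a fit of the 2 groups (0.193). It was also lost with a pseudocount of 0.1 (0.0504), with no filter (0.0816) and with a minimum of 5 TPM (0.0578), and so was kept in 8 of 17 alternatives. In Idh2R172K, Bad, a BH3-only death protein, was lower (-0.31, adjusted p = 0.0287 by limma), a call lost when WT replicate 3 or 4, or replicate 2 or 4 of Idh2R172K, was left out (adjusted p 0.0527 to 0.116) and in a fit of the 2 groups (0.0841).

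In the pathway that heparanase belongs to, 10 other enzymes that degrade or trim heparan sulfate, or process heparanase, were tested. In Tet2KO against WT 0 were called and the median was -0.29. An unadjusted p under 0.05 was found for 4 (40%, beside 26.6% of all genes). Of these, 3 were lower (30%, beside 11.3% of all genes) and 1 higher (10%, beside 15.2%). In Idh2R172K Gusb, the lysosomal beta-glucuronidase, fell from 136 to 104 TPM (-0.38, adjusted p = 0.0228 by limma), a call lost when WT replicate 3 or 4, or replicate 4 of Idh2R172K, was left out (adjusted p 0.0545 to 0.0714). Ctsl, the cathepsin that activates heparanase, rose from 45.7 to 56.5 TPM (0.30, adjusted p = 0.0348), a call lost when WT replicate 1 or 3, or replicate 1, 2 or 4 of Idh2R172K, was left out (adjusted p 0.0617 to 0.113) and with median-of-ratios scaling (0.152). Hpse2, the inactive relative of heparanase, was at 0 TPM in every WT, Idh2R172K and Tet2KO library. Of 17 tested enzymes of heparan sulfate synthesis, 0 were called in either contrast. In Tet2KO 6 of them (35.3%) had an unadjusted p under 0.05, all lower, with a median of -0.34. Of all genes, 11.3% were lower at that limit and 26.6% passed it in either direction. In Idh2R172K 2 of the synthesis enzymes (11.8%) had an unadjusted p under 0.05, both higher, with a median of 0.20. There 17.3% of all genes were higher at that limit and 28.8% passed it in either direction.

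The proteoglycan core proteins carry the chains. In Tet2KO 1 of 11 tested, Sdc2, was higher (9.09%, beside 5.02% of all genes), with a median of -0.08 over the list. An unadjusted p under 0.05 was found for 4 (36.4%, beside 26.6% of all genes). Of these, 3 were lower (27.3%, beside 11.3% of all genes) and 1 higher (9.09%, beside 15.2%). Sdc2, syndecan 2, measured 10.1 ± 1.29 TPM in WT and 19.8 ± 4.47 TPM in Tet2KO (SD, n = 4; 0.88, adjusted p = 0.0107 by limma). All 4 Tet2KO libraries lay above the highest of WT (13.5 to 23.3 TPM against 8.40 to 11.5 TPM). The call was kept with each library left out and lost in a fit of the 2 groups (adjusted p = 0.082 by limma). In Idh2R172K Sdc2 measured 11 TPM (adjusted p = 0.758). There the glypicans, cell-surface cores, moved in both directions. Gpc3 rose from 11.2 to 70.1 TPM (2.53, adjusted p = 1.64e-07 by limma), while Gpc1 fell from 16.5 to 4.57 TPM (-1.67, adjusted p = 0.00015) and Gpc4 from 2.74 to 0.233 TPM (-1.57, adjusted p = 5.45e-05). Col18a1, a basement membrane core protein, rose from 2.96 to 7.62 TPM (1.11, adjusted p = 0.000261). In Tet2KO Gpc1 measured 9.34 TPM (adjusted p = 0.0786 by limma) and Gpc3 13.6 TPM (adjusted p = 0.487).

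Markers of the sort and of other cell types moved in both groups in which Rps6ka2 and Hpse were low. Ly6a (Sca1) measured 168 TPM in WT, 292 TPM in Tet2KO (0.79, adjusted p = 0.000999 by limma) and 130 TPM in Idh2R172K (-0.36, adjusted p = 0.0317). The second call was lost when WT replicate 1 or 2, or replicate 1 or 4 of Idh2R172K, was left out (adjusted p 0.0912 to 0.101), with median-of-ratios scaling (0.0934) and in a fit of the 2 groups (0.053). Summed levels of 11 megakaryocyte and platelet genes were 581 to 698 TPM in WT, 1113 to 1289 TPM in Idh2R172K and 463 to 814 TPM in Tet2KO. In Idh2R172K 4 of the 10 tested were higher (40%) and 2 lower (20%), beside 8.03% and 7.33% of all genes. In Tet2KO 0 were higher and 1 lower (10%), beside 5.02% and 2.02%. Vwf, one of these genes, was lower in both groups, at 8.59 TPM in WT, 2.96 TPM in Idh2R172K and 3.35 TPM in Tet2KO. Its Tet2KO call was lost without WT replicate 1 or 3 (adjusted p 0.0502 and 0.0517 by limma) and in a fit of the 2 groups (0.0916). The 10 macrophage genes summed to 198 to 262 TPM in WT, 130 to 150 TPM in Idh2R172K and 260 to 274 TPM in Tet2KO. Of the 9 tested, 2 were lower in Idh2R172K (22.2%, beside 7.33% of all genes). In Tet2KO 2 were higher (22.2%, beside 5.02%), and 0 in a fit of the 2 groups. The count was also 0 when WT replicate 2 or 3, or Tet2KO replicate 2 or 4, was left out. The 9 red cell genes found summed to 51.2 to 82.5 TPM in WT, 45.6 to 70.3 TPM in Idh2R172K and 95.4 to 134 TPM in Tet2KO. In Tet2KO 5 of these 9 were higher (55.6%, beside 5.02% of all genes) and 2 lower (22.2%, beside 2.02%). Without WT replicate 2 the counts were 3 and 1, and in a fit of the 2 groups 1 and 0. The globin gene Hbb-bs was at 21.1 TPM against 9.31 TPM in WT. No marker gene on these lists was at 0 in all libraries. Their part in the levels of Rps6ka2 and Hpse was not tested.

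Summed levels of the other lists overlapped between WT and Tet2KO, but single genes in them were called. The counts below stand beside the shares of all genes tested against WT. These were 8.03% higher and 7.33% lower in Idh2R172K, and 5.02% higher and 2.02% lower in Tet2KO. The sums are carried by a few abundant genes, such as Nkg7 for T and NK cells. The sums over WT, Idh2R172K and Tet2KO were 40.1 to 108, 34.0 to 94.6 and 44.4 to 133 TPM for mature neutrophils, with 0 of 9 tested genes called in either contrast. For basophils and mast cells they were 468 to 597, 579 to 739 and 503 to 775 TPM. In Idh2R172K 3 of 8 tested genes of that list were lower, among them Prss34 (121 to 20.0 TPM), and 1 was higher, Cpa3 (106 to 281 TPM). In Tet2KO 2 were higher, Il4 and Prss34. Il4 kept that call in all 8 fits that left out 1 library, and Prss34 in 1 of 8. For the B lineage the sums were 96.0 to 114, 41.0 to 118 and 113 to 131 TPM. There 2 of 6 tested genes were lower in Idh2R172K, among them Cd79b (85.5 to 29.0 TPM), 2 were higher, and 0 were called in Tet2KO.

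For T and NK cells the sums were 797 to 1018, 726 to 812 and 803 to 908 TPM. In Idh2R172K 3 of 4 tested genes of that list were lower (75%, beside 7.33% of all genes), among them Lck (45.1 to 9.37 TPM). In Tet2KO 0 were called. For stroma and endothelium they were 55.6 to 98.3, 50.0 to 63.2 and 47.0 to 88.0 TPM, with 1 of 2 tested genes lower in Idh2R172K. For the LSK sort markers they were 1313 to 1561, 1485 to 1646 and 1092 to 1733 TPM. In Idh2R172K 2 of 8 were lower (25%, beside 7.33% of all genes), and in Tet2KO 1 was higher (12.5%, beside 5.02%). The part of these cells in the levels of Rps6ka2 and Hpse was not tested either.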

How the data were processed

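RNA-seq of sorted LSK cells was analysed in 20 libraries, 4 in each of 5 groups, and each library is a pool of 2 mice. The authors deposited 1 table of TPM values for 46078 gene IDs, of which 45143 were matched to symbols in GENCODE M21. Trim Galore, STAR, featureCounts and the build mm10 are named, with no versions, per the submitters' processing notes. Where a TPM value times the M21 exonic length gave whole multiples, it was read as reads: 90.0% to 91.0% of values up to 30 reads were whole within 0.1. Single reads thus limit Sva most.

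Genes averaging 1 TPM or more over the 20 libraries, 14176 in all, entered 1 limma fit (version 3.58.1, R 4.3.3) of log2(TPM + 1) over all 5 groups, with a variance trend and Benjamini-Hochberg adjustment. All 3 genes passed this filter. The script was tested on simulated data. The 3 genes and the gene lists were chosen with earlier results of these data known, so no p is given for any contrast of the 3 genes with Tet2KO and none for a list. Of other genes, those named are up to 6 called genes of each pathway list in Tet2KO or Idh2R172K against WT, a fixed set of relatives (Rps6ka1, Rps6ka3, Hpse2, Ctsl, Pip and Sval1 to Sval3), the 5 protein-coding neighbours on each side, the 5 genes most like each gene and the 10 largest falls in Tet2KO. Others were named after their values were seen, and some genes that this rule names are not reported here. Alternatives were 9 planned settings and each library left out in turn.

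Libraries with the same number deviated together between Idh1R132H and WT (r 0.176 to 0.489) and among the 3 Idh groups (r 0.147 to 0.538), with every pair over 0.1. Nothing in the labels says what the number marks.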

Additional observations from a re-analysis of the deposited data

Results flagged for a closer look

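In Tet2KO, 1 library stood apart from the other 3 in Sva: it measured 0.135 TPM, which is 1 read, while the others were at 0. With 3 values at 0 the gap to the nearest of the others divided by the range is 1 for any single read, so Dixon's limit for 4 samples is passed by construction and the flag says nothing beyond that read. These are also the values by which Sva was chosen. It was the 1 group of 15 checked (3 genes in 5 groups) that passed the limit.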

How the results depend on the processing

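For Sva, Rps6ka2 and Hpse every call and non-call among WT and the 3 Idh groups held under each alternative run, 16 or 17 per result. A minimum of 5 TPM removes Rps6ka2. In Idh2R172K against WT the adjusted p by limma ranged from 8.54e-06 to 0.00122 for Rps6ka2, from 1.74e-07 to 0.000681 for Hpse and from 0.738 to 0.992 for Sva. With a pseudocount of 0.1 the Tet2KO minus WT difference was -6.19 for Sva and -2.42 for Rps6ka2, by construction of that scale.

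Counts of called genes depended more on the setting. Tet2KO against WT gave 999 calls (712 higher and 287 lower), 517 with a minimum of 5 TPM, 2648 with median-of-ratios scaling (1135 higher and 1513 lower), 45 in a fit of the 2 groups, 5231 with library weights, 4515 without the number 4 libraries and Tet2KO replicate 2, and 266 to 1391 with 1 library left out (266 without WT replicate 3, 351 without Tet2KO replicate 4, 504 without WT replicate 1). Idh2R172K against WT gave 2177, 1371 at 5 TPM, 4586 with weights 4641 without the number 4 libraries, and 1618 to 2154 with 1 library left out. Against Idh1R132H it gave 1918, 1242, 4567, 3815 and 1428 to 1801, and against Idh2R140Q 1489, 894, 2734, 2884 and 1168 to 1383. Idh1R132H against WT gave 1, 2 with no filter, and 0 at 5 TPM or in a fit of the 2 groups. Idh2R140Q against WT gave 0, and 2 with no filter. Idh2R140Q against Idh1R132H gave 1, 0 with a pseudocount of 0.1 or at 5 TPM, 2 with no filter, 5 with weights, and 0 to 3 with 1 library left out. Why the counts moved with the setting was not tested.

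With the replicate number as a block, Tet2KO against WT gave 2485 calls and Idh1R132H against WT 2, and no call on the 3 genes changed. In 22 of 40 same-numbered pairs over all groups the deviations correlated above 0.1 (r -0.197 to 0.538), and in 23 the library correlated best with its own number. Pairs of Tet2KO with other groups ran from -0.197 to 0.114.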
